A study of Mus musculus with 20 samples.

Results

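The smooth muscle contractile genes examined here were Acta2, Actg2, Tpm1, Tagln, Myh11, Cnn1, Sncg, Cav1 and Itga7. They were found by taking every probe set whose single gene symbol in the platform annotation was one of these 9, which gave 13 probe sets of the 10833 with 1 symbol (8251 genes in all). RNA came from the whole prostate of 10- to 12-week-old C57/B6 mice, 1 array (MG-U74A) per sample and 5 samples per group, 20 arrays in all. The 4 groups were sham-treated mice (sham), mice castrated 3 days earlier (C3), mice castrated 14 days earlier (C14), and mice that had been castrated for 14 days, received a 15 mg testosterone pellet and were examined 3 days later (C14+T3). C3, C14 and C14+T3 share the loss of the testes, and no mutant allele or transgene is named in the labels. C14+T3 mice differ from C14 mice by the 3 further days and the pellet procedure as well as by testosterone. No group had those without testosterone, so they cannot be told apart from it. The study followed the prostate through regression after castration and through regrowth under testosterone.

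Smooth muscle surrounds the glands of the prostate, and its contraction empties them. Calcium and calmodulin activate myosin light chain kinase, which lets smooth muscle myosin (Myh11) pull on filaments of smooth muscle actin (Acta2 and Actg2). Tropomyosin (Tpm1), calponin (Cnn1) and transgelin (Tagln) lie along those filaments. Many of these genes carry CArG boxes, the DNA elements that serum response factor binds, often together with myocardin. The prostate depends on androgen: its glands shrink after castration and regrow when testosterone is given back. The other 3 genes are less specific. Cav1 encodes caveolin-1, the coat protein of caveolae, which are abundant in smooth muscle, endothelium and fat cells. Itga7 encodes a laminin-binding integrin subunit of muscle cells, and Sncg encodes gamma-synuclein, a protein of peripheral neurons that is also made in fat cells.

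Promoters are shown for a member that was higher in C14+T3 than in sham (Acta2), one that was lower in C14 and returned (Cnn1) and one that was higher in C14 (Cav1). RefSeq sequences for 250 bases before to 50 bases after an annotated start were matched by symbol for 5 of the 9 genes, in GRCm38.p6. No sequence was available for Actg2, Tagln, Myh11 and Itga7, so these were not searched. Those printed are Acta2 (chr19:34255324-34255623, minus strand), Cnn1 (chr9:22099003-22099302, plus strand) and the first of the pair of Cav1 starts (chr6:17306085-17306384, plus strand). Each runs 5′ to 3′, with capitals for a CArG box in which 1 of the 6 inner A or T letters may be G or C.
Acta2: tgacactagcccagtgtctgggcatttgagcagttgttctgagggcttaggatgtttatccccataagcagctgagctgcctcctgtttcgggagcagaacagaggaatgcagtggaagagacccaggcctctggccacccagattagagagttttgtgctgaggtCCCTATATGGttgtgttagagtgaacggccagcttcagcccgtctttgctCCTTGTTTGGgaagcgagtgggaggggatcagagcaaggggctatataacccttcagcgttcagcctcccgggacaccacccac
Cnn1: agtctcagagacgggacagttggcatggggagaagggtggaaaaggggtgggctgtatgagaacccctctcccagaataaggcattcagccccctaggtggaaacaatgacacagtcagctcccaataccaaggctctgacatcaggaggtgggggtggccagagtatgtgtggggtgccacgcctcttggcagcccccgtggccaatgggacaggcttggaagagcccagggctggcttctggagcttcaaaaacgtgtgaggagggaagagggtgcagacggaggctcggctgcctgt
Cav1: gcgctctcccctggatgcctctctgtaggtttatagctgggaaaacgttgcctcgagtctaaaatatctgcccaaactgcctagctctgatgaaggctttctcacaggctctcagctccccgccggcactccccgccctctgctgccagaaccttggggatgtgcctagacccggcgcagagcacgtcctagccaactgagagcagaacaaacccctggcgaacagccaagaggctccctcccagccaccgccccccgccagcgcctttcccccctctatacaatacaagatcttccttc
The Acta2 window held this relaxed CArG box at 2 places, CCCTATATGG at 84 to 75 bases and CCTTGTTTGG at 34 to 25 bases before the start. It was found in 1 of the 6 member windows (Cav1 has 2 starts) and in 9.98% of 32851 mouse promoter windows of the same length. The strict box, with 6 A or T letters, was in 0 of the 6 and in 1.63% of all windows. The androgen receptor hexamer AGAACA, searched on both strands, was in 2 of the 6, those of Acta2 and of the first Cav1 start, and in 19% of all windows. These matches describe letters in the window and nothing was measured about binding there.

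Each array gave a linear MAS5 signal for every probe set, and each probe set has its own scale, so signals are compared between groups only within a probe set. Of 12422 probe sets that were not controls, 6913 (55.7%) had a signal above 190.8 on at least 5 of the 20 arrays and were tested. Among the 13 member probe sets 11 passed, with at least 1 for each of the 9 genes. Changes are differences of log2(signal + 12.7) from 1 limma fit of all 4 groups, and a change was called at an adjusted p (Benjamini-Hochberg over all 6913) under 0.05. The prostate genes Pbsn (probasin) and Msmb (beta-microseminoprotein) marked the tissue. Msmb signal was 10500 ± 1730 in sham, 1090 ± 582 in C3, 134 ± 95.3 in C14 and 7500 ± 1700 in C14+T3 (mean ± SD, n = 5 each). Pbsn was 16900 ± 1570, 15200 ± 305, 4900 ± 854 and 10000 ± 1270 in the same order. Its change in C3 against sham was not called (-0.15, limma adjusted p = 0.441). Krt8, a luminal keratin, went the other way, from 3600 ± 537 in sham to 7110 ± 1540 in C14. On 4 arrays, C14 replicates 4 and 5 and C14+T3 replicates 2 and 5, the log2 ratio of the 3′ to the 5′ Gapdh control probe set was 1.82 to 4.54, against -0.53 to -0.08 on the other 16. The array titles carry running numbers that follow the groups, so a batch that does the same cannot be told apart from treatment. In whole-tissue RNA, fewer smooth muscle cells and less RNA per cell cannot be told apart either.

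The 9 genes did not move as one. After 3 days of castration 3 of the 11 probe sets were called against sham, 1 higher and 2 lower, where 14.3% of all tested probe sets were called (9.84% higher and 4.46% lower). In C14 against sham 8 were called, 4 higher and 4 lower (52.9% of all called, 28.6% higher and 24.3% lower). In C14 against C3, 1 was higher and 2 were lower (40.5% of all called, 20.2% higher and 20.4% lower). In C14+T3 against C14, 9 were called, 6 higher and 3 lower (44.8% of all called, 18.2% higher and 26.6% lower). In C14+T3 against sham 3 were higher and 1 lower (53% of all called, 23.5% higher and 29.5% lower). Groups did not overlap for 2 probe sets in C3 against sham (13.3% of all), for 6 in C14 against sham (35% of all), for 3 in C14 against C3 (32.4% of all), for 8 in C14+T3 against C14 (30.7% of all) and for 3 in C14+T3 against sham (31.4% of all). The counts that involve C14 include Sncg 104280_at, which passed the filter through the C14 arrays only. On the other 10 probe sets, 3 were higher and 4 lower in C14 against sham (5 with groups apart), 0 higher and 2 lower in C14 against C3 (2 apart), and 6 higher and 2 lower in C14+T3 against C14 (7 apart). Taking the brighter probe set of each gene, the median log2 change of the 9 genes was -0.22 in C14 against sham (0.01 over all probe sets) and 0.58 in C14+T3 against C14 (-0.10 over all). The comparisons with C14 on both sides share the C14 arrays, and those with sham share the sham arrays, so their values below are set side by side without a test of how they relate.

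**Figure D1:**
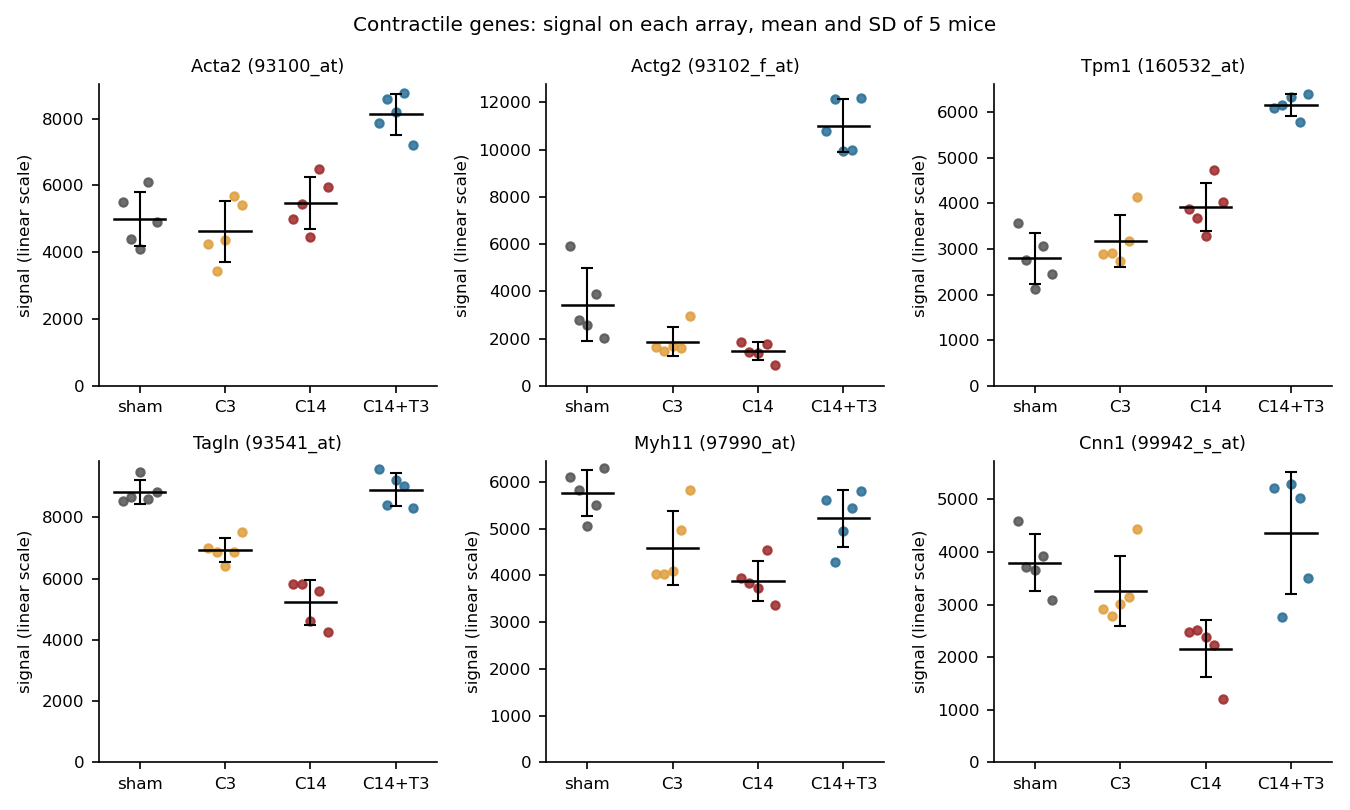
Signal (linear scale, own scale for each probe set) of the 6 contractile genes on each array, for sham, 3 and 14 days after castration (C3, C14) and 14 days of castration followed by testosterone (C14+T3). Points are mice, the bar is the mean and the whisker the SD of 5. All 5 C14+T3 arrays of Actg2, 9961.2 to 12190.3, lie above every other array.

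Actg2, the gamma actin of visceral smooth muscle, had the largest change of all members between C14+T3 and C14. Its signals were 10808, 12147.4, 9961.2, 9993.8 and 12190.3 in C14+T3, against 1865.2, 1431, 1388.9, 1791.5 and 881.1 in C14. The lowest C14+T3 array was thus far above the highest C14 array. Actg2 was 7.65-fold higher in C14+T3 than in C14 (log2 change 2.93 ± 0.25 SE, adjusted p = 2.38e-08, limma). Sham arrays read 5934, 2796.2, 2563.9, 3899.3 and 2017.6, so the C14+T3 arrays also lay above all sham arrays, by 3.42-fold (log2 change 1.77 ± 0.25, adjusted p = 1.22e-05, limma). In C3 the signals were 1646.9, 1478.7, 1691.5, 1585.9 and 2970.8. Actg2 fell by 0.82 on the log2 scale in C3 against sham (adjusted p = 0.0349), but the groups overlapped and the call was lost in 9 of 31 other settings. In 6 of these 1 array was left out, with the highest adjusted p without sham replicate 1 (-0.60, adjusted p = 0.0945). The others were the fit of the 2 groups alone (adjusted p = 0.0713), no filter (adjusted p = 0.0543) and the skeletal muscle covariate (adjusted p = 0.0721). In C14 it fell by 1.16 (adjusted p = 0.000739) with no overlap with sham, while the difference between C14 and C3, -0.34, did not pass (adjusted p = 0.292).

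The Actg2 probe set, 93102_f_at, is of the kind whose probes are shared within a sequence family, and it was the 1 probe set of the gene on the array. Other actins are therefore given beside it. Acta1, the skeletal muscle actin, averaged 4780 ± 2180 in sham, 910 ± 413 in C3, 3200 ± 1980 in C14 and 11500 ± 2170 in C14+T3. It was higher in C14+T3 than in C14 by 2.17 on the log2 scale (adjusted p = 0.00127) and than in sham by 1.41 (adjusted p = 0.0216). Actc1 101029_f_at, for cardiac actin and also of the shared-probe kind, rose by 1.45 in C14+T3 against C14 (adjusted p = 0.000196). The other Actc1 probe set, 101028_i_at, did not pass there (1.05, adjusted p = 0.379). Actg1, a cytoplasmic actin, did not pass in that comparison (log2 change 0.22, adjusted p = 0.0894), nor did Actb (101578_f_at, -0.16, adjusted p = 0.771). The summed signal of 21 tested skeletal muscle genes of a list of 30 was 5782 to 28599 in sham, 3538 to 7877 in C3, 5821 to 50879 in C14 and 13681 to 48422 in C14+T3. Acta1 is 1 of the 21 and a large part of some sums, as on C14+T3 replicate 5, with 9646.2 of 13681. Ckm, the muscle creatine kinase, ranged from 51.8 to 579.9 in C14+T3 and from 41.7 to 758.9 in C14. Of the 21 genes 1 rose (Acta1) and 1 fell (Ryr1) in C14+T3 against C14, where 18.2% of all probe sets were higher and 26.6% lower. Without the 4 high-ratio arrays 1 rose and 2 fell, where 17.9% of all were higher and 22.6% lower. With the skeletal muscle genes' mean as a covariate the Actg2 change was 2.96 in C14+T3 against C14 and 1.76 against sham. The part of cross-hybridisation with other actins in the Actg2 signal was not tested.

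**Figure D2:**
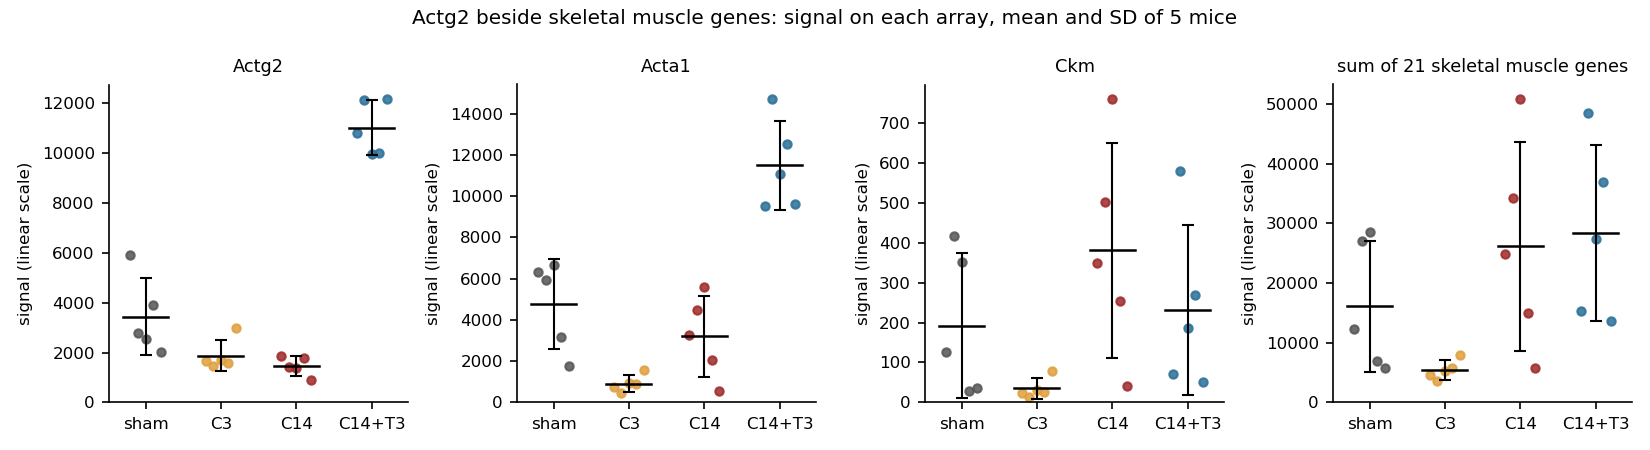
Signal (linear scale) on each array of Actg2, of skeletal actin Acta1, of creatine kinase Ckm and of 21 skeletal muscle genes summed (Acta1 among them), by group. Points are mice, bars the mean and whiskers the SD of 5. Actg2 and Acta1 are highest on the 5 C14+T3 arrays, whereas Ckm and the sum overlap between C14+T3 and C14.

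Acta2, the alpha actin of smooth muscle, was read by 93100_at. Its signals were 7860.3, 8586.8, 8201.3, 8755.9 and 7217.4 in C14+T3, against 5004.6, 5459, 4470.5, 6481.5 and 5966.9 in C14. All C14+T3 arrays were above all C14 arrays, with a fold of 1.49 (log2 change 0.58 ± 0.14, adjusted p = 0.00217, limma). Under quantile normalization this change was 0.32 (adjusted p = 0.0565). Sham arrays read 5494.5, 4394.8, 4100.6, 6107.2 and 4896.4, and C14+T3 was 1.64-fold higher than sham (adjusted p = 0.000314, limma), again with no overlap. C3 arrays, from 3427.4 to 5670.6, overlapped both sham and C14. Castration gave no called change in Acta2: -0.12 in C3 (95% interval -0.41 to 0.17, adjusted p = 0.632) and 0.13 in C14 (-0.16 to 0.42, adjusted p = 0.433), each against sham.

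Tpm1, tropomyosin 1, was the member that stood higher both after castration and after testosterone. Its signals were 6091.6, 6166.3, 6336.4, 5796.4 and 6395.1 in C14+T3, against 3883.2, 3681.1, 3278.9, 4730.8 and 4025 in C14. The C14+T3 arrays, which lay close together, were all above the C14 arrays (1.58-fold, log2 change 0.66 ± 0.13, adjusted p = 0.000498, limma). Sham arrays read 3565.2, 2770.4, 2119.4, 3069.5 and 2448, which put C14+T3 2.23-fold above sham (adjusted p = 1.19e-06). C14 was above sham by 0.50 (adjusted p = 0.00412) although 1 sham array exceeded a C14 array, and with those 4 high-ratio arrays left out this change was 0.39 (adjusted p = 0.0504). In C3 Tpm1 averaged 3174 ± 569, against 2794 ± 558 in sham, and did not pass (adjusted p = 0.391).

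Of the other filament and motor genes, Tagln, Myh11 and Cnn1 were lower in C14 than in sham and higher in C14+T3 than in C14. Tagln, transgelin, fell at each step after castration. Its signals were 8531.4, 8669.7, 9493.8, 8599 and 8839.6 in sham, 7001.6, 6874.9, 6400.8, 6867.5 and 7512.1 in C3, 5827.6, 5819.6, 4610.2, 5608.1 and 4249.4 in C14, and 9575, 8390.7, 9221, 9018.9 and 8301.5 in C14+T3. No C3 array reached a sham array and no C14 array reached a C3 array. The log2 change was -0.35 in C3 against sham (adjusted p = 0.0136), -0.42 in C14 against C3 (adjusted p = 0.00138) and -0.77 in C14 against sham (adjusted p = 1.12e-06). The first of these was -0.30 under quantile normalization (adjusted p = 0.0656). In C14+T3 Tagln was 1.71-fold higher than in C14 (log2 change 0.78 ± 0.09, adjusted p = 1.22e-06, limma), and its difference from sham was 0.01 with a 95% interval of -0.18 to 0.20.

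Myh11, the smooth muscle myosin heavy chain, had signals of 3941.7, 3846.8, 3736.8, 4535.4 and 3368.3 in C14, against 6105.9, 5823.3, 5058.7, 5514 and 6299.5 in sham. Every C14 array was below every sham array, and Myh11 fell by 0.57 on the log2 scale (adjusted p = 0.000438, limma). The C3 arrays, 4020.4, 4039.5, 4096.7, 4962.8 and 5828.9, spanned both groups: the change of -0.34 against sham missed the threshold (adjusted p = 0.059), and it passed without C3 replicate 5 (-0.43, adjusted p = 0.017) and without the 4 high-ratio arrays (-0.34, adjusted p = 0.0343). The C14+T3 arrays read 5607, 4283.5, 4951.4, 5443.2 and 5813.2. They overlapped the C14 arrays through 1 array on each side, both of high Gapdh ratio. Myh11 was 1.34-fold higher in C14+T3 than in C14 (log2 change 0.42 ± 0.12, adjusted p = 0.00591). Under quantile normalization that change was 0.19 (adjusted p = 0.273). Against sham, C14+T3 differed by -0.15 (95% interval -0.39 to 0.10, adjusted p = 0.3).

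Cnn1, calponin 1, had signals of 2473.4, 2523, 2389.6, 2228.9 and 1207.2 in C14, against 4581.6, 3707.6, 3665.4, 3919.7 and 3080.2 in sham. The C14 arrays were all below the sham arrays (log2 change -0.84 ± 0.21, adjusted p = 0.00227, limma). C3 arrays, from 2779.6 to 4436.3, lay among the sham arrays or just under them, and the change of -0.23 did not pass (adjusted p = 0.53). C14 was below C3 by 0.61 (adjusted p = 0.0251), but not past the threshold without C3 replicate 5 (-0.50, adjusted p = 0.0734) or without C14 replicate 5 (-0.42, adjusted p = 0.079). In C14+T3 the signals were 5208.7, 2759.9, 5292.1, 5028 and 3507.4, and the 2 low values belong to the arrays of high Gapdh ratio. Cnn1 was 2.01-fold higher in C14+T3 than in C14 (log2 change 1.01 ± 0.21, adjusted p = 0.000593). Against sham the change was 0.17 (adjusted p = 0.516), and 0.46 without the 4 arrays (adjusted p = 0.0147).

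**Figure D3:**
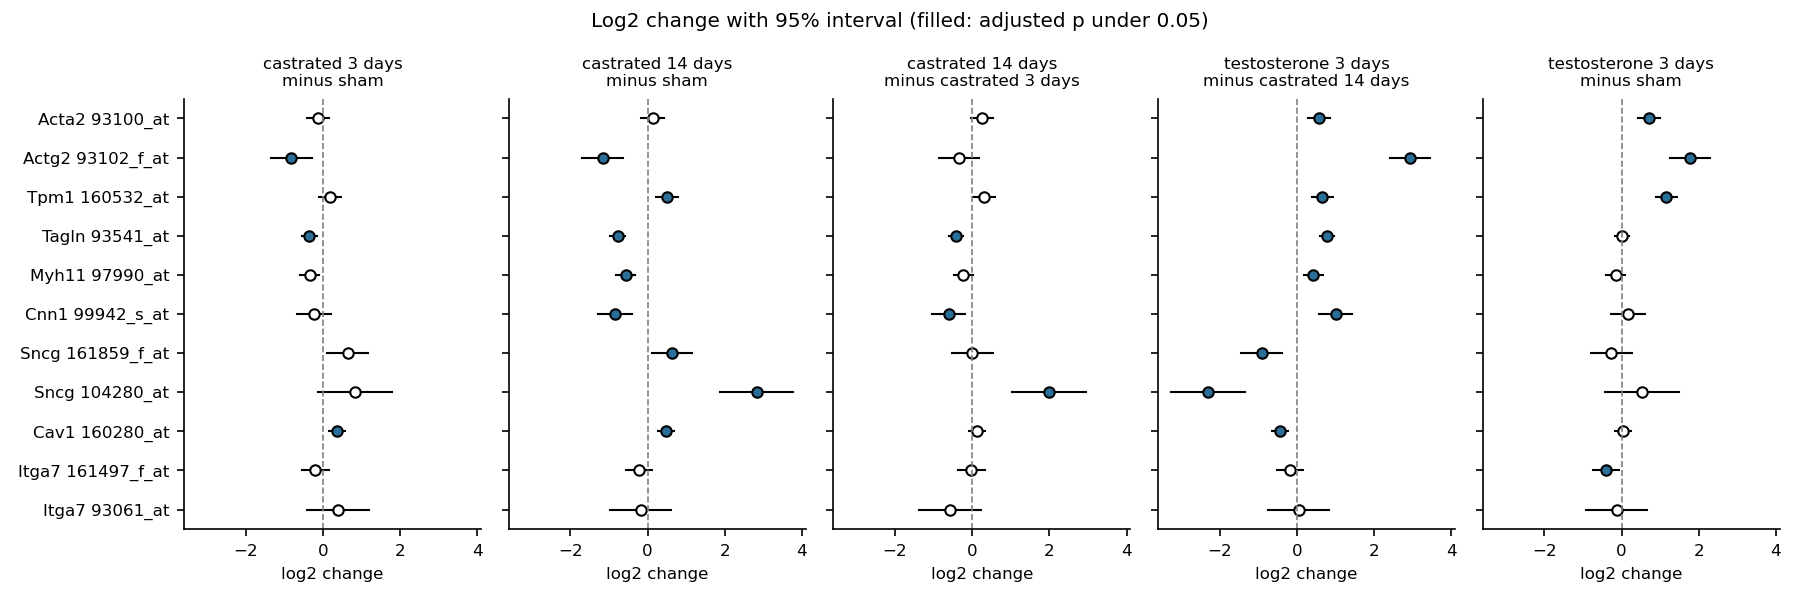
Log2 change (x axis) with its 95% interval for the 11 tested member probe sets in the 5 comparisons; filled points passed an adjusted p of 0.05. In C14+T3 against C14 the 6 contractile genes lie above 0, from 0.42 to 2.93, and both Sncg probe sets and Cav1 lie below it. Sncg 104280_at is a description wherever C14 is compared, as only its C14 arrays passed the filter.

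The balance between the contractile genes changed with castration. Within each array the log2 signal of Actg2, Tpm1, Tagln, Myh11 or Cnn1 was taken relative to Acta2, and differences of that ratio between groups were tested by an exact permutation test over arrays (two-sided, 25 tests, smallest possible p 0.00794). After adjustment 14 of the 25 were under 0.05. In C14 against sham the ratio to Acta2 was lower for Actg2 (by -1.29), Cnn1 (-0.98), Tagln (-0.90) and Myh11 (-0.70) and higher for Tpm1 (0.36), each with groups that did not overlap (exact p = 0.00794, adjusted p = 0.0153). In C14+T3 against C14 the ratio of Actg2 to Acta2 was higher by 2.36 (exact p = 0.00794, adjusted p = 0.0153). The other 4 ratios did not pass in that comparison: their differences were 0.43 for Cnn1, 0.20 for Tagln, 0.08 for Tpm1 and -0.15 for Myh11 (adjusted exact p = 0.278 to 0.388). Against sham, C14+T3 had lower ratios to Acta2 of Myh11 (-0.86) and Tagln (-0.70) and higher ones of Actg2 (1.06) and Tpm1 (0.45), all with groups apart (adjusted exact p = 0.0153), while Cnn1 (-0.54) did not pass (adjusted exact p = 0.0744). In that comparison Acta2 itself was higher by 0.71, and the changes of Tagln (0.01) and Myh11 (-0.15) did not pass. Leaving out the 4 high-ratio arrays, the Actg2 difference was 1.98 in C14+T3 against C14 and -1.05 in C14 against sham, with groups still apart. In the same setting the Cnn1 difference was 0.33 in C14+T3 against C14, where the 3 arrays on each side did not overlap, and -0.61 in C14 against sham.

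**Figure D4:**
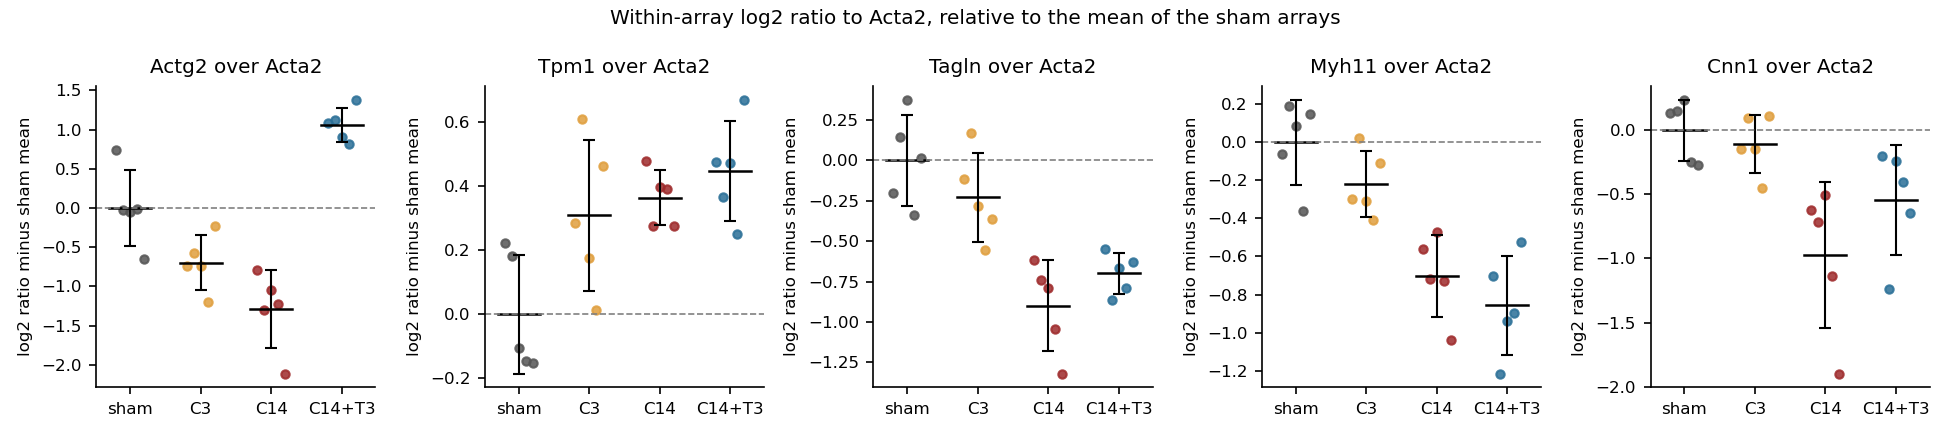
Within-array log2 ratio of 5 contractile genes to Acta2 (y axis, relative to the mean of the sham arrays, dashed line) by group; points are mice, bars the mean and whiskers the SD of 5. The Tagln, Myh11 and Cnn1 ratios are low in C14 and their C14+T3 arrays lie below the sham mean, while that of Actg2 goes above it. Acta2 itself was higher in C14+T3 than in sham.

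Where the 6 filament genes were higher, in C14+T3 against C14, Cav1 160280_at and both Sncg probe sets were lower. In C14 against sham Cav1 was higher, as was Tpm1 among the filament genes. Cav1 160280_at had signals of 2352.3, 2798.9, 2324.6, 2091.8 and 2392.3 in C14+T3, against 3131.5, 3173.3, 2896.2, 3602.7 and 3421 in C14. No C14+T3 array reached a C14 array, and Cav1 was 1.36-fold lower (log2 change -0.44 ± 0.10, adjusted p = 0.00137, limma). With arrays centred on their medians this was -0.24 (adjusted p = 0.138). C14 was above sham, whose arrays ranged from 2149 to 2440.7, by 0.48 (adjusted p = 0.000515). C3, from 2664.3 to 3818.8, was already above every sham array, by 0.36 (adjusted p = 0.0184), but not past the threshold with median centring (adjusted p = 0.0798) or without C3 replicate 5 (0.28, adjusted p = 0.057). C14+T3 and sham differed by 0.04 (adjusted p = 0.75). The second Cav1 probe set, 97849_at, was too dim to pass the filter and ran differently, at 203 ± 42.7 in sham, 145 ± 32.2 in C3, 107 ± 27.6 in C14 and 117 ± 45.4 in C14+T3.

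Sncg had 2 probe sets that differed in size and in time course. On 104280_at the C14 arrays read 507, 410.1, 485, 284.7 and 585.5, against 14.9, 62.9, 115.3, 17.8 and 119.5 in sham, and this probe set passed the filter through the C14 arrays alone. C3 arrays read 126, 49.7, 68.5, 147.1 and 160.4, and C14+T3 arrays 94, 27.2, 101.5, 58.1 and 179.6. The C14 arrays thus stood above all others. The log2 change was 2.83 in C14 against sham and -2.30 in C14+T3 against C14, given as a description because the filter chose this probe set by its C14 signals. On 161859_f_at, a probe set of the shared-probe kind, C14 averaged 532 ± 43 and C3 551 ± 155, against 370 ± 196 in sham. C14 against sham was 0.64 (adjusted p = 0.041), a call lost in 14 of 31 other settings, among them without the 4 high-ratio arrays (0.68, adjusted p = 0.0844), and C14 against C3 was 0.00 (adjusted p = 0.996). C14+T3, at 281 ± 57.3, was below C14 by 0.91 with no overlap (adjusted p = 0.00631), though not past the threshold once the 4 high-ratio arrays were left out (-0.83, adjusted p = 0.0699).

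Many markers of other cell types were also higher in C14 than in sham and lower in C14+T3 than in C14, where 28.6% of all probe sets were higher and 24.3% lower in C14 against sham and 26.6% were lower in C14+T3 against C14. Of 8 tested nerve and Schwann cell genes 7 were higher and 1 lower in C14 than in sham, and 6 were lower in C14+T3 than in C14. Snap25, a synaptic protein, changed by 3.04 (C14 against sham) and -2.89 (C14+T3 against C14), and Prph, peripherin of peripheral neurons, by 2.55 and -2.50. Of 8 adipocyte genes 4 were higher and 1 lower in C14 than in sham and 5 were lower in C14+T3 than in C14, with Adipoq, adiponectin, at 2.02 and -2.78. Of 6 endothelial genes 4 were higher in C14 than in sham and 4 lower in C14+T3 than in C14, among them the junction gene Cldn5 (1.96 and -1.91). All 4 tested pericyte genes were higher in C14, and 3 were lower in C14+T3 than in C14. Some of these markers averaged above the filter value of 190.8 in C14 only: Snap25, Prph, Cldn5, the adipocyte gene Retn and the pericyte gene Kcnj8. Snap25, for example, averaged 40.6 in sham, 94.8 in C3, 340 in C14 and 50.1 in C14+T3. The filter may have taken such genes mainly by their C14 signals. Their changes are therefore a description, and the counts above that include them are partly set by the filter. The summed signals ranged over 4926 to 6035 in C14 and 2660 to 3502 in sham for nerve, over 5185 to 9944 in C14 and 1381 to 3282 in sham for adipocyte, over 3372 to 3821 in C14 and 2031 to 2619 in sham for endothelial, and over 2547 to 3431 in C14 and 919 to 1667 in sham for pericyte genes. In C14+T3 the sums were 3234 to 4601 for nerve, 2016 to 2550 for adipocyte, 2031 to 2800 for endothelial and 1279 to 1485 for pericyte genes. None of these tested markers was at 0 on any array. The part of these cells in the Sncg and Cav1 values was not tested. In C3 against sham, where Cav1 was already higher by 0.36, the calls were 0 of 8 adipocyte and 0 of 4 pericyte genes, 1 of 6 endothelial genes (higher) and 2 of 8 nerve genes (1 higher, 1 lower), where 9.84% of all were higher and 4.46% lower. The median log2 changes of these lists were 0.20 for adipocyte, 0.22 for pericyte, 0.32 for endothelial and 0.53 for nerve genes, against 0.04 over all probe sets. Fibroblast and matrix genes were higher in C3 than in sham for 11 of 15. They were higher in C14 than in sham for 12 of 15. In C14+T3 against C14, where 18.2% of all were higher, 5 were higher and 6 lower. In C14 against sham, luminal epithelial genes were lower for 3 of 8 and higher for 2.

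**Figure D5:**
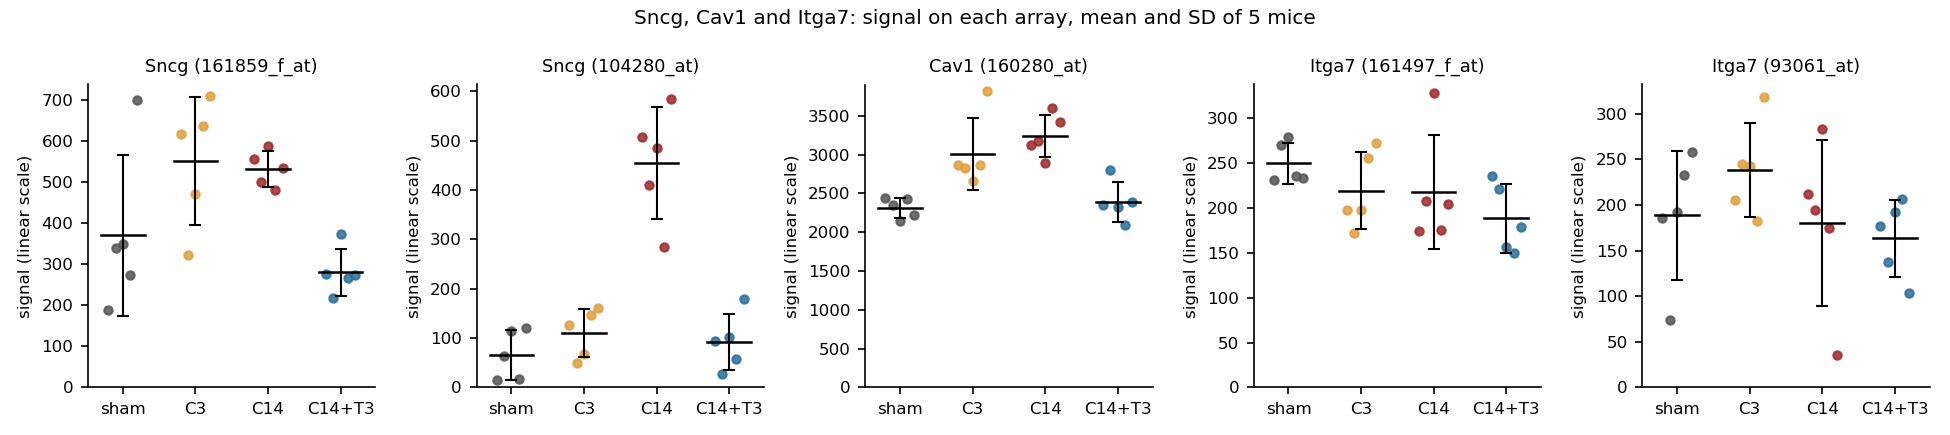
Signal (linear scale, own scale for each probe set) of the tested Sncg, Cav1 and Itga7 probe sets on each array, by group; points are mice, bars the mean and whiskers the SD of 5. Sncg 104280_at stands out in C14 (284.7 to 585.5), Cav1 is higher in C3 and C14, and the Itga7 groups overlap in all 5 comparisons.

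Itga7 stayed close to the filter value in every group. Probe set 161497_f_at averaged 250 ± 23.1 in sham, 219 ± 42.9 in C3, 218 ± 63.8 in C14 and 189 ± 38.6 in C14+T3. Its 1 call was in C14+T3 against sham (-0.40, adjusted p = 0.0468), and it was lost in 17 of 31 other settings, among them without the 4 high-ratio arrays (-0.46, adjusted p = 0.062). Probe set 93061_at, at 189 ± 70.6, 239 ± 51.5, 180 ± 90.7 and 163 ± 42 in sham, C3, C14 and C14+T3, had no call, and the sign of its C14+T3 against C14 change (0.05) turned in 5 settings. A further probe set, 160086_at, averaged 27, 12.7, 8.48 and 8.94 in the same order and was not tested.

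Other genes of the smooth muscle cell were read from 5 lists that leave out the 9 members: the contractile apparatus and its regulators, intermediate filaments and dense plaques, caveolae, transcription of smooth muscle genes, and receptors, channels and relaxation. Of their 68 genes on the array 45 were tested. In C14 against sham 18 were higher and 7 lower, where 28.6% of all probe sets were higher and 24.3% lower, with a median log2 change of 0.14 against 0.01 over all probe sets. In C14+T3 against C14, 8 were higher and 12 lower, counts close to the 18.2% and 26.6% over all, with a median of -0.11 against -0.10. Leaving out the 4 high-ratio arrays, these counts were 17 and 7 (26.2% and 23.2% of all), then 9 and 11 (17.9% and 22.6% of all).

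In the contractile apparatus, 3 of 15 tested genes were higher in C14+T3 than in C14, where 18.2% of all were, and 5 of 15 without the 4 high-ratio arrays, where 17.9% of all were. Mylk, myosin light chain kinase, averaged 6760 ± 793 in sham, 5610 ± 497 in C3, 4880 ± 398 in C14 and 8190 ± 722 in C14+T3, so that it was lower in C14 than in sham (-0.47, adjusted p = 0.000483) and higher in C14+T3 than in C14 (0.74, adjusted p = 4.22e-06), as were Tagln, Myh11 and Cnn1. Tpm4, another tropomyosin, was higher in C14 than in sham (1.15, adjusted p = 6.29e-06) and higher still in C14+T3 (0.77 against C14, adjusted p = 0.000509), as was Tpm1. Myl9, the regulatory light chain, was higher in C14+T3 than in C14 (0.58, adjusted p = 0.002) and did not pass in C14 against sham (-0.03). The 2 lower genes, Tpm3 (-0.52), a tropomyosin, and Ppp1cb (-0.36), a subunit of myosin phosphatase, did not pass without the 4 arrays (-0.20, adjusted p = 0.438, and -0.23, adjusted p = 0.116). Cnn2, a calponin of many cell types, was higher in C14 than in sham (0.98). Myh9, a non-muscle myosin, was lower in C14 at 773 ± 513, against 4080 ± 542 in sham, and the C14+T3 against sham change of -1.95 was -0.95 without the 4 arrays.

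Among filament anchors, Ilk (0.58), Csrp1 (0.42) and Actn1 (0.38), parts of the plaques where actin meets the membrane, were higher in C14+T3 than in C14. Sspn (1.99-fold), Sgce (1.47-fold) and Svil (1.45-fold), membrane-linked proteins of the dystrophin complex or the actin cortex, were lower in C14+T3 than in C14, and all 3 were higher in C14 than in sham (2.77-, 2.01- and 1.36-fold). The caveolar coat genes Cavin1, Cavin2 and Cavin3 were higher in C14 than in sham (0.99, 1.43 and 1.55), as was Cav1. Cavin1 (-0.46, adjusted p = 0.0216) and Cavin2 (-0.57, adjusted p = 0.0267) were lower in C14+T3 than in C14, and Cavin3 did not pass (-0.11). Of 9 tested genes for transcription, 1 was higher and 4 lower in C14+T3 than in C14. Over all probe sets, 18.2% were higher and 26.6% lower in that comparison. The 4 lower genes were Tcf21 (-1.40), a factor of mesenchymal cells, Mef2d (-0.74), Klf5 (-0.69) and Klf4 (-0.37). The 1 higher gene, Tgfb1i1, a coactivator of the androgen receptor, was lower in C14 than in sham (-0.54, adjusted p = 0.0011), and its change of 0.31 in C14+T3 (adjusted p = 0.0439) did not pass without the 4 arrays (0.27, adjusted p = 0.188). Of 4 tested receptor and channel genes, Kcnma1, a potassium channel, was lower in C14+T3 than in C14 (-0.50) and Atp2a2, a calcium pump, higher (0.41), and neither passed without the 4 arrays (-0.46, adjusted p = 0.0548, and 0.34, adjusted p = 0.183). Rgs2, which restrains signalling by contractile receptors, was higher in C14 than in sham (0.85) and in C14+T3 than in sham (1.21).

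Arrays of the same group also differed from one another. For each array the deviations from the group mean of the 6 filament genes were standardised and averaged. This score was highest on C3 replicate 5 (1.63) and lowest on C14 replicate 5 (-1.16), an array of high Gapdh ratio. Over the 20 arrays the gene whose deviations were most like the score was Mylk (Pearson r = 0.86), ahead of Ank1, an ankyrin (0.73), Ptgds (0.71), Lgals3bp (0.70), Itpkb (0.70), Svs6 (0.69), Ckb (0.69), Fhod3 (0.68), Svs4 (0.68) and Cavin3 (0.67). Of the members outside the score, Cav1 160280_at had r = 0.50 and both Sncg probe sets were near 0 (-0.01 and -0.14). These correlations describe 20 arrays that share their scaling and RNA, and the list holds Svs4 and Svs6, which are seminal vesicle secretory genes. Ank1 also differed between groups, at -1.10 in C14 against sham (adjusted p = 4.72e-06) and 1.23 in C14+T3 against C14 (adjusted p = 1.59e-06).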

How the data were processed

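The deposited values are intensities, 1 linear signal per probe set and array, computed by the authors with MAS5 version 5.0, per the submitters' processing notes. The trimmed means (2% off each end) were 500.2 to 500.3, so arrays had been scaled to a common level. Genes were named through the platform annotation. From these signals log2(signal + 12.7) was taken, where 12.7 is the 10th percentile of all values without control probe sets and 190.8, the filter value, is their median. Groups came from the labels, and the series' design text gives 5 mice per group. Testing used limma 3.58.1 in R 4.3.3 (lmFit, contrasts.fit and eBayes, 4 groups in 1 fit, two-sided, Benjamini-Hochberg), tested on simulated data. The number of arrays limits the precision. Named genes were all members, up to 4 called genes of each list with the largest change in a comparison, and the 10 genes most like the filament genes, and the actins, Ckm and, in some comparisons, Mylk, Myl9, Ppp1cb, Svil, Csrp1, Actn1, Cavin3 and Tgfb1i1 were named outside that rule after their values were seen. The members, lists and alternatives were chosen with earlier results of these data known. Alternatives changed the pseudocount, filter, scaling, arrays, weights, spread or covariate, 1 at a time, and the counts of the lists and the ratios without 4 arrays and the member counts without Sncg 104280_at were added after seeing the data. Signals of 2 arrays were identical for at most 0.368% of probe sets.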

Additional observations from a re-analysis of the deposited data

Results flagged for a closer look

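Of 52 groups of 5 arrays checked among the member probe sets, 7 had 1 array whose gap to the nearest other array was over 0.71 of the group's range. Chance gives about 1 in 20. C3 replicate 5 stood high for Actg2 at 2970.8, where the other C3 arrays had 1478.7 to 1691.5. The same array was high for Cnn1 at 4436.3 (others 2779.6 to 3147.9) and for Cav1 160280_at at 3818.8 (others 2664.3 to 2872.9). C14 replicate 5, an array of high Gapdh ratio, was low for Cnn1 at 1207.2 (others 2228.9 to 2523) and for Itga7 93061_at at 35.4 (others 175 to 283.6). Itga7 161497_f_at was high on C14 replicate 3 at 328.9 (others 174.6 to 207.8), and Itga7 93061_at was low on sham replicate 2 at 74.1 (others 185.7 to 257.9). The cause of these values was not tested.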

How the results depend on the processing

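In 31 other settings (20 that leave out 1 array, and 11 that change the pseudocount, filter, scaling, samples, weights, spread, covariate or leave out 4 arrays), 16 of the 27 called changes among 55 combinations of probe set and comparison were called the same way throughout, and 9 uncalled ones changed sign. Both the 27 and the 16 include Sncg 104280_at in the comparisons with C14, which are a description because the filter chose it by its C14 signals. The count of called member probe sets was 3 in C3 against sham (2 to 4 when leaving out 1 array and 2 to 4 in the 11 other settings), 8 in C14 against sham (7 to 8 and 6 to 9), 3 in C14 against C3 (2 to 4 and 2 to 5), 9 in C14+T3 against C14 (9 in all 20, and 7 to 9) and 4 in C14+T3 against sham (3 to 4 and 3 to 5). The 7 came from quantile normalization, without Acta2 and Myh11. The setting without a filter counts all 13 member probe sets. The 9 in C14 against sham and the 5 in C14+T3 against sham therefore include Cav1 97849_at and Itga7 160086_at, which did not pass the filter. Both had lower mean signals in C14 than in sham, for Cav1 97849_at 107 against 203, whereas Cav1 160280_at was higher in C14. Quantile normalization gave 5 in C14 against C3, adding Acta2 (0.33) and Tpm1 (0.34), and the cause was not tested. Across scalings the median of all probe sets in C14+T3 against C14 was -0.10 as deposited and 0.09 with median centring, and in C14+T3 against sham -0.09 and 0.08. In C14+T3 against sham the Tagln change ranged from -0.11 to 0.18 and that of Cav1 160280_at from -0.04 to 0.21. The Actg2 change ranged from 2.71 to 3.13 in C14+T3 against C14. Sncg 104280_at had 30 settings, as it does not pass the filter on the mean. Dim probe sets such as Itga7 and Sncg 104280_at, whose signals lie near or under the filter value, are the least precise. No paired analysis was run, because the labels link no mouse of one group to a mouse of another. The replicate numbers used here follow the order of the samples.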
